A study of Mus musculus with 2 samples.

Results

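A set of 9 genes of the provisional and matricellular matrix was followed through 2 single-cell RNA libraries of mouse back-skin wounds, taken 5 days after injury. The genes are *Fn1*, *Tnc*, *Postn*, *Thbs1*, *Thbs2*, *Sparc*, *Fbn1*, *Eln* and *Cthrc1*. They were chosen by symbol, and all 9 were found among the 31053 genes of both count tables. Live cells, negative for the dye 7AAD, were sorted from the pooled wounds of 3 mice per group and captured in droplets, where each RNA molecule gets a unique molecular identifier (UMI). By the labels both groups were *Mrc1*-DTR mice on C57BL/6, 7 to 9 weeks of age. In such mice the *Mrc1* promoter drives the receptor for diphtheria toxin, and *Mrc1* encodes CD206, a protein of many tissue macrophages. One group was given PBS and the other diphtheria toxin (DTX). The study's methods instead name wild-type mice given the toxin as controls, and the sources used here do not settle which holds. With 1 library per group no difference between groups can be tested, and intervals cover counting error only.

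*Mrc1* was first set beside the labels. Over all kept cells it was at 65.4 CPM (counts per 1000000 UMIs of the cells summed) in the PBS-labelled library and at 268 CPM in the DTX-labelled. Within macrophage-like cells it was at 492 and 429 CPM. *Mrc1* was therefore not lower over all cells in the library labelled as toxin-treated. That level depends on the share of macrophage-like cells, which was larger in the DTX-labelled library, so by itself it does not check the labels. The PBS-labelled table held 12058 barcodes and the DTX-labelled 11031. The study's text gives the larger number of cells to the toxin-depleted *Mrc1*-DTR mice rather than to its controls. Which library came from which mice was not settled here, and the libraries are called by their labels throughout. After filtering, 7944 PBS-labelled cells held 81235634 UMIs and 6613 DTX-labelled cells held 54872675 UMIs, and the libraries shared 13 barcodes among these cells. Fibroblast-like cells were 38.6% and 9.92% of the cells, in the order PBS-labelled and DTX-labelled that is kept for all pairs of values below. Macrophage-like cells were 21.4% and 67.0% and epithelial-like cells 26.0% and 3.55%. Cells were grouped without using the 9 genes, and the fibroblast-like class held the collagen gene *Col1a1* at 14987 and 11702 CPM.

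A wound is first filled by a provisional matrix of clotted plasma proteins and fibronectin, which fibroblasts later replace with collagen. Matricellular proteins are secreted into this matrix and tune how cells attach and signal rather than bear load. Elastic fibres, made of elastin on a scaffold of fibrillin, give skin its recoil. Wound fibroblasts are a main source of these proteins, and macrophages are known to make fibronectin and thrombospondin 1 as well.

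By role, *Fn1* (ENSMUSG00000026193, chr1:71585520-71653200, minus strand) encodes fibronectin, the adhesive protein of the provisional matrix. *Tnc* (ENSMUSG00000028364, chr4:63959785-64047015, minus strand) encodes tenascin C and *Postn* (ENSMUSG00000027750, chr3:54361109-54391037, plus strand) periostin, matricellular proteins that are induced in healing tissue. *Thbs1* (ENSMUSG00000040152, chr2:118111876-118127133, plus strand) and *Thbs2* (ENSMUSG00000023885, chr17:14665500-14694235, minus strand) encode thrombospondins, and the first can activate latent TGF-beta. *Sparc* (ENSMUSG00000018593, chr11:55394500-55423183, minus strand) encodes a matricellular protein that binds collagen. *Fbn1* (ENSMUSG00000027204, chr2:125300594-125507993, minus strand) encodes fibrillin 1 and *Eln* (ENSMUSG00000029675, chr5:134702593-134747323, minus strand) elastin. *Cthrc1* (ENSMUSG00000054196, chr15:39076932-39087121, plus strand) encodes a secreted protein of activated fibroblasts. Positions are those of the GENCODE annotation of GRCm38.

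The promoters of *Tnc* and *Postn* are printed because these were the members at least 2-fold higher in DTX-labelled cells of 2 fibroblast clusters described below. RefSeq promoters of GRCm38.p6, from 250 bases before to 50 bases after a start site, matched 5 of the 9 genes. Both *Tnc* and *Postn* matched 2 windows, and the one nearest the gene's GENCODE start is printed. Capitals mark the letters TATAAA, which occur in TATA boxes, and the SMAD motif CAGACA, which reads TGTCTG on the other strand. The window of *Tnc* is chr4:64046966-64047265 on the minus strand, and that of *Postn* is chr3:54360857-54361156 on the plus strand.
Tnc: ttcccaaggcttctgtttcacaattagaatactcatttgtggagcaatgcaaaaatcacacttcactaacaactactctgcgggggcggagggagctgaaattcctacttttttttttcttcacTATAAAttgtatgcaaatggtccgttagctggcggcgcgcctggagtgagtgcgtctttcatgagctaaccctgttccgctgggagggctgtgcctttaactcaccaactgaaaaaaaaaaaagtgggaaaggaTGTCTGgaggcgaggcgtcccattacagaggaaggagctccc
Postn: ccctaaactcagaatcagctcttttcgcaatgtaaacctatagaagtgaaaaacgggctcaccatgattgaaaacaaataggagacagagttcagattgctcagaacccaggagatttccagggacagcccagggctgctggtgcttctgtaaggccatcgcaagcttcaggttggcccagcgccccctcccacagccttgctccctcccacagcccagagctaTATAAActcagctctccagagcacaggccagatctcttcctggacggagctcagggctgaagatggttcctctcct
In *Postn* the TATAAA began at position -26 from the start site. In *Tnc* it began at -126, and the SMAD motif at 8. A second *Tnc* window, counted from another start, held TATAAA at -205 and the SMAD motif at -71 and 39, and a second *Postn* window held none of the motifs searched. Of 27025 mouse promoters of the same length, 14.2% held TATAAA and 21.0% held CAGACA. The AP-1 motif TGANTCA (in 7.93% of promoters), the TEAD motif GGAATG (14.6%) and the CArG box (1.57%) were also searched on both strands, and neither printed window held those letters. Reads from the 3′ end of transcripts do not show which start site was used.

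Most of the set was stromal, while *Fn1* and *Thbs1* were shared with other cells. Fibroblast-like cells gave 98.3% and 97.6% of all *Cthrc1* UMIs, 97.7% and 94.5% of *Thbs2* and 97.9% and 94.8% of *Eln*. Of *Fbn1* they gave 97.5% and 89.9%, of *Sparc* 96.8% and 86.8%, of *Tnc* 93.5% and 85.0% and of *Postn* 84.0% and 80.9%. The same class gave 92.0% and 37.5% of *Fn1* and 55.9% and 7.33% of *Thbs1*. Macrophage-like cells gave 4.90% and 57.5% of *Fn1* UMIs and 16.4% and 84.8% of *Thbs1* UMIs. Epithelial-like cells gave 23.6% and 2.17% of *Thbs1* UMIs and 13.3% and 5.67% of *Postn* UMIs. A share depends both on how many cells of a class were captured and on the RNA in each. Over all cells *Fn1* was at 522 and 532 CPM, nearly the same level from different classes.

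**Figure D1:**
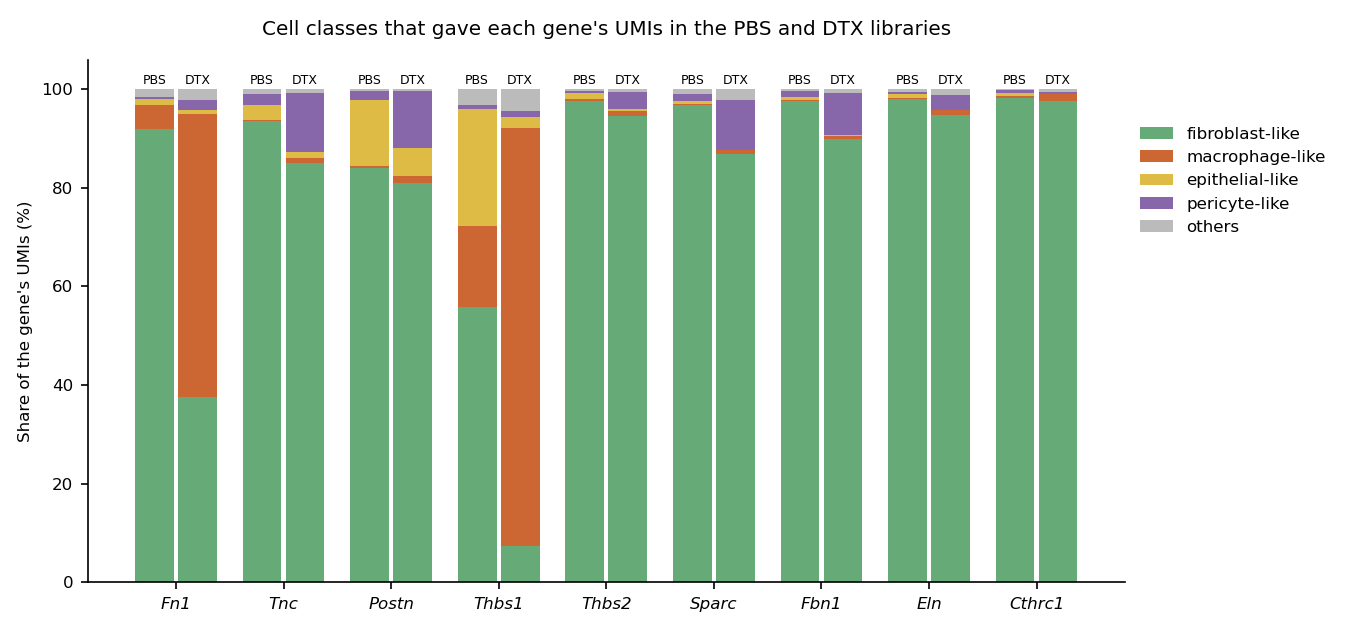
Stacked bars give the percentage of each gene's UMIs that came from each cell class, in the PBS-labelled and DTX-labelled library. The macrophage-like share was 4.90% and 57.5% for Fn1 and 16.4% and 84.8% for Thbs1.

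Which of these genes differed in fibroblasts is the first question of the design. In fibroblast-like cells (3066 PBS-labelled and 656 DTX-labelled) none of the 9 reached a 2-fold difference, where 1.4% of 11814 genes were at least 2-fold lower and 2.64% at least 2-fold higher. *Tnc* came nearest, at 457 CPM (449.6 to 464) and 832 CPM (814 to 851). Its log2 ratio, DTX-labelled over PBS-labelled, was 0.86 (0.83 to 0.90). *Postn* was at 949 and 1123 CPM (log2 0.24) and *Cthrc1* at 376 and 403 CPM (0.10). *Fn1* was at 1114 and 1127 CPM, with 0.02 (-0.01 to 0.05) as the log2 ratio.

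Both thrombospondins were lower in DTX-labelled fibroblast-like cells. *Thbs1* was at 2398 and 1490.1 CPM (log2 -0.69) and *Thbs2* at 585 and 375 CPM (-0.64). *Sparc* was at 17059 and 12021 CPM (-0.50). Of the elastic fibre genes, *Eln* was at 561 and 419.8 CPM (-0.42) and *Fbn1* at 620.0 and 588 CPM (-0.08). A list of 8 myeloid genes was at 1804 and 1568 CPM in these cells. It includes *Apoe*, a leading gene of fibroblast cluster F2 described below, so it does not measure myeloid RNA alone. *Mrc1* was at 2.94 and 15.2 CPM, and *Pf4*, which macrophages also make, at 7.42 and 33.6 CPM. The part of myeloid RNA in these levels was not tested. Without 2 small mixed clusters the log2 ratio was -0.81 for *Thbs1* and 0.86 for *Tnc*. The median log2 ratio of the 9 was -0.08, against 0.12 over all genes compared. With at most 2000 genes per cell, *Sparc* (-1.06), *Thbs2* (-1.07) and *Tnc* (1.19) passed 2-fold. Separately, each cell with at least 2000 UMIs was thinned to 2000 UMIs. The 82 and 6 cells with fewer were left out, and such cells are absent from all thinned shares below. Among thinned cells, 35.4% and 44.6% had a *Tnc* UMI, and 34.1% and 49.7% a *Postn* UMI.

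**Figure D2:**
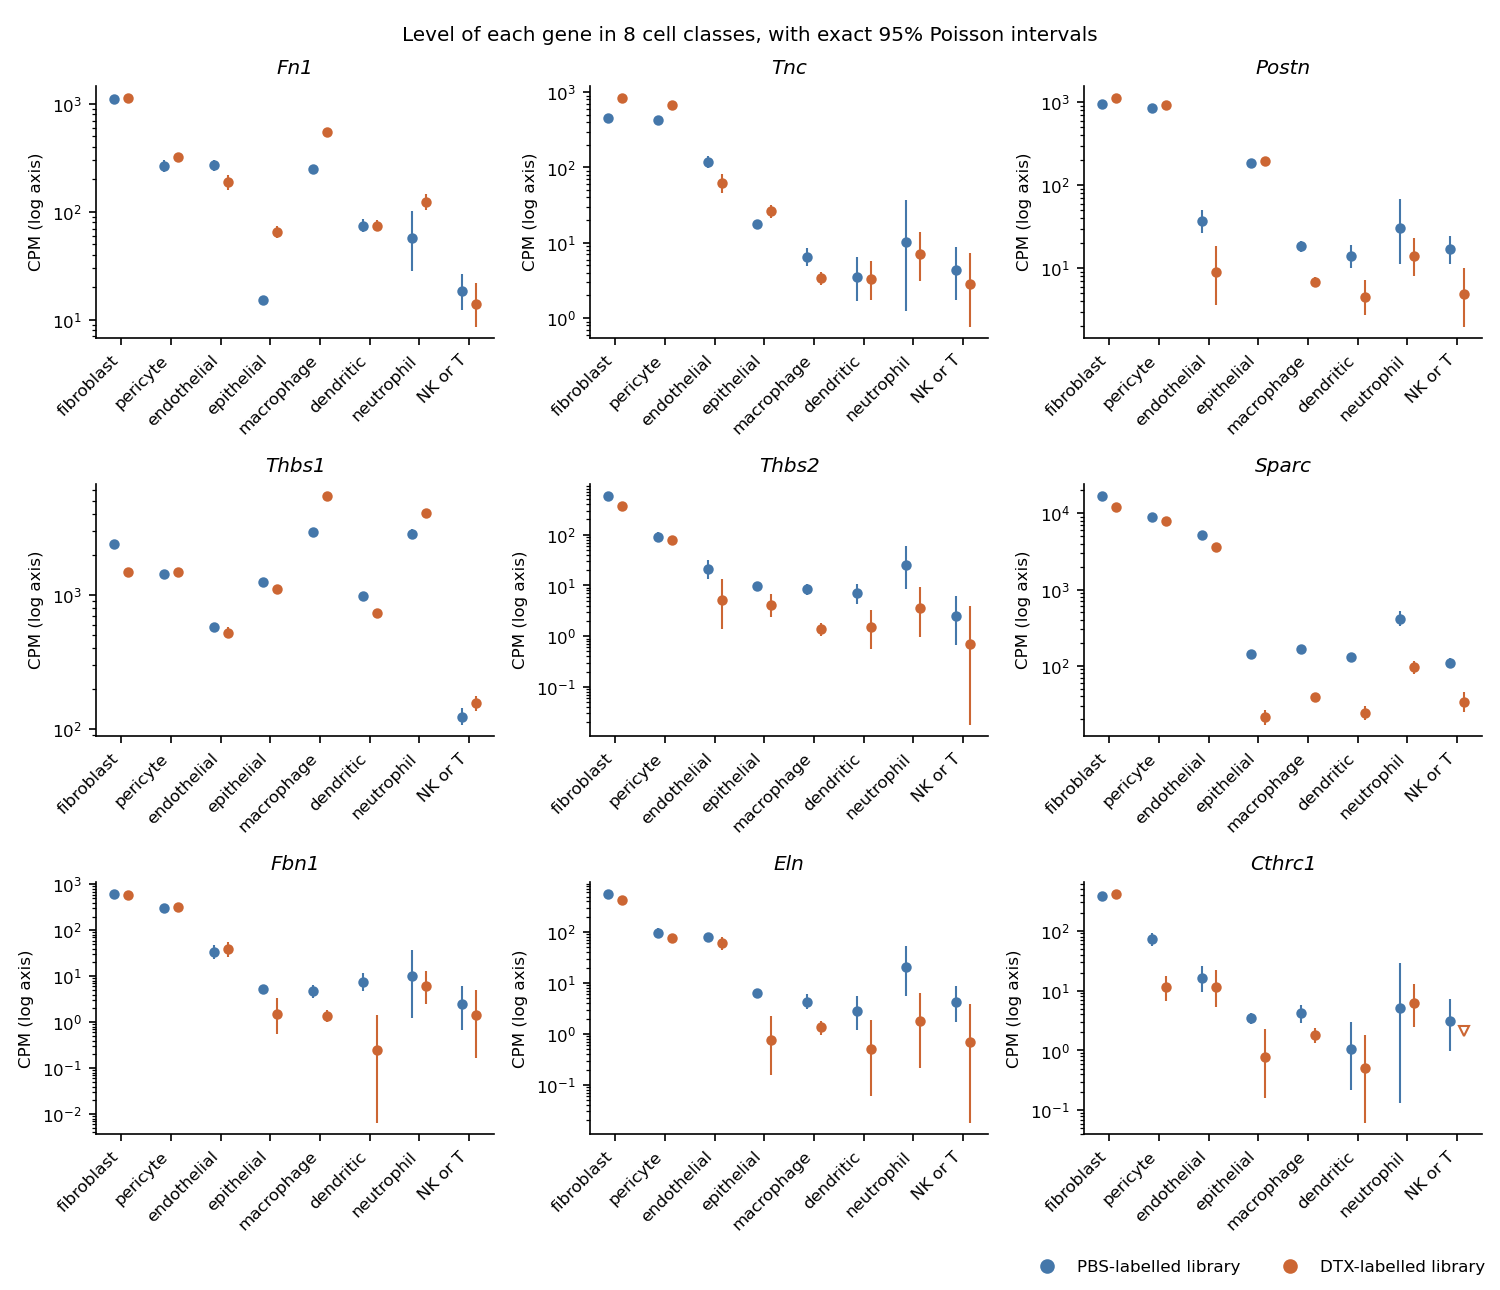
Points give the level of each gene in CPM, on a log axis, by cell class in the PBS-labelled and DTX-labelled library, with exact 95% Poisson intervals. Open triangles mark the level of 3 counts where no UMI was found. Thbs1 in macrophage-like cells was at 2968 and 5474 CPM, and Sparc in fibroblast-like cells at 17059 and 12021 CPM.

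Clustering the fibroblast-like cells again, without the 9 genes, gave 4 large clusters. F0 (850 PBS-labelled and 299 DTX-labelled cells) was led by *Sfrp2*, *Mfap5* and *Plac8*, with *Postn* also among its leading genes. F1 (1022 PBS-labelled and 97 DTX-labelled) was led by *Igfbp2*, *Grem1* and *Vcam1*, F2 (756 PBS-labelled and 61 DTX-labelled) by *Ctla2a*, *Gpx3* and *Cpxm1*, and F3 (371 PBS-labelled and 130 DTX-labelled) by *Coch*, *Fmod* and *Enpp2*. Of the small clusters, F4 was led by myeloid genes such as *Cd74* and *Lyz2* and F6 by keratinocyte genes such as *Krt14*, so these 2 hold RNA of other cell types. F0 was 27.7% and 45.6% of fibroblast-like cells, F1 33.3% and 14.8%, F2 24.7% and 9.30% and F3 12.1% and 19.8%.

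The members were highest in different clusters. Among the 4 in the PBS-labelled library, F0 had the most *Fn1* (2187 CPM), *Postn* (2171 CPM), *Fbn1* (964 CPM) and *Cthrc1* (787 CPM). F1 had the most *Sparc* (22374 CPM), *Thbs2* (793 CPM) and *Tnc* (676 CPM). *Thbs1* was highest in F2, at 3843 CPM, and *Eln* in F3, at 1163 CPM. *Postn* was low in F1, at 38.9 CPM.

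Finer clustering set *Postn* apart further. In a cluster led by *Acta2*, *Spp1* and *Lrrc15* (261 PBS-labelled and 78 DTX-labelled cells), of which *Acta2* encodes the actin of contractile myofibroblasts, *Postn* was at 3429.8 and 2515 CPM. *Cthrc1* there was at 1237 and 945 CPM and *Tnc* at 1079 and 1324 CPM. In the PBS-labelled library these levels of the 3 genes were the highest among finer clusters with at least 50 PBS-labelled cells. *Postn* and *Cthrc1*, which were not used for clustering, were themselves among the genes that led this cluster. Another cluster was led by *Prg4*, *Pi16* and *Plac8* (519 PBS-labelled and 187 DTX-labelled cells). In the same comparison it had the most *Fn1*, at 2685 and 2077 CPM, and the most *Fbn1*, at 1217 and 911 CPM. *Tnc* was there at 175 and 189 CPM.

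*Postn* and *Cthrc1* also met in the same thinned fibroblast-like cells. In PBS-labelled cells with a *Postn* UMI, 50.4% had one of *Cthrc1*, against 16.9% of cells without, and in DTX-labelled cells the shares were 41.5% and 21.4%. Spearman's rho across 2984 and 650 cells was 0.41 and 0.24. All fibroblast clusters were pooled here, and both genes were found most often in F0. Of thinned PBS-labelled F0 cells, 74.6% had a *Postn* UMI and 57.2% one of *Cthrc1*, against 4.91% and 7.16% in F1. Whether both genes are linked within clusters was not tested. For other pairs, rho was 0.36 and 0.26 for *Fn1* and *Cthrc1* and 0.09 and 0.27 for *Sparc* and *Cthrc1*. It was negative for *Postn* and *Thbs1* (-0.27 and -0.20) and for *Fn1* and *Tnc* (-0.11 and -0.25). These cells share a library and a fixed depth, so the values are a description.

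Within clusters *Tnc* and *Postn* differed most. In F1 *Tnc* was at 676 and 2051 CPM, or 1.60 (1.53 to 1.66) on the log2 scale. In F3 it was at 456 and 1114 CPM, or 1.29 (1.18 to 1.39). In F0 it was at 498 and 579.6 CPM (0.22) and in F2 at 164 and 209.8 CPM (0.35). The F0 and F2 differences were thus small beside those of F1 and F3. *Postn* in F1 was at 38.9 and 202 CPM, or 2.35 (2.12 to 2.57), and in F3 at 555 and 1445 CPM, or 1.38 (1.28 to 1.48). Where *Postn* was highest it was lower in DTX-labelled cells, at 2171 and 1429.6 CPM in F0 (-0.60). In F1 these 2 of the 9 members were at least 2-fold higher, where 2.15% of 8645 genes were, and in F3 again these 2, where 0.841% of 6898 genes were. No member was at least 2-fold lower in any of the 4 clusters, where 0.965% (F0), 3.59% (F1), 4.57% (F2) and 1.93% (F3) of genes were. None was at least 2-fold higher in F0 or F2, where 0.79% and 1.77% of genes were. F1 cells also differed between libraries in genes that lead F3 or finer clusters. In F1, *Coch* was at 69.7 and 244 CPM, *Crabp1* at 242 and 826 CPM and *Lrrc15* at 10.3 and 65.7 CPM. *Gpnmb* (797 and 615 CPM) and *Acta2* (11.7 and 11.9 CPM) differed less. Whether F1 holds the same cell state in both libraries was not tested.

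The 2 genes rested on different numbers of cells. In DTX-labelled F1, 91 of 97 cells had a *Tnc* UMI, but 23 of 97 had one of *Postn*, and 51 of the 270 *Postn* UMIs came from 1 cell. Of the 6 DTX-labelled F1 cells with at most 2000 genes, none had a *Postn* UMI. Of thinned F1 cells, 54.4% and 81.1% had a *Tnc* UMI and 4.91% and 9.47% a *Postn* UMI. In F3 the thinned shares were 35.99% and 61.2% for *Tnc*, and the same number of cells had a *Postn* UMI, so there both genes were found in more of the DTX-labelled cells.

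**Figure D3:**
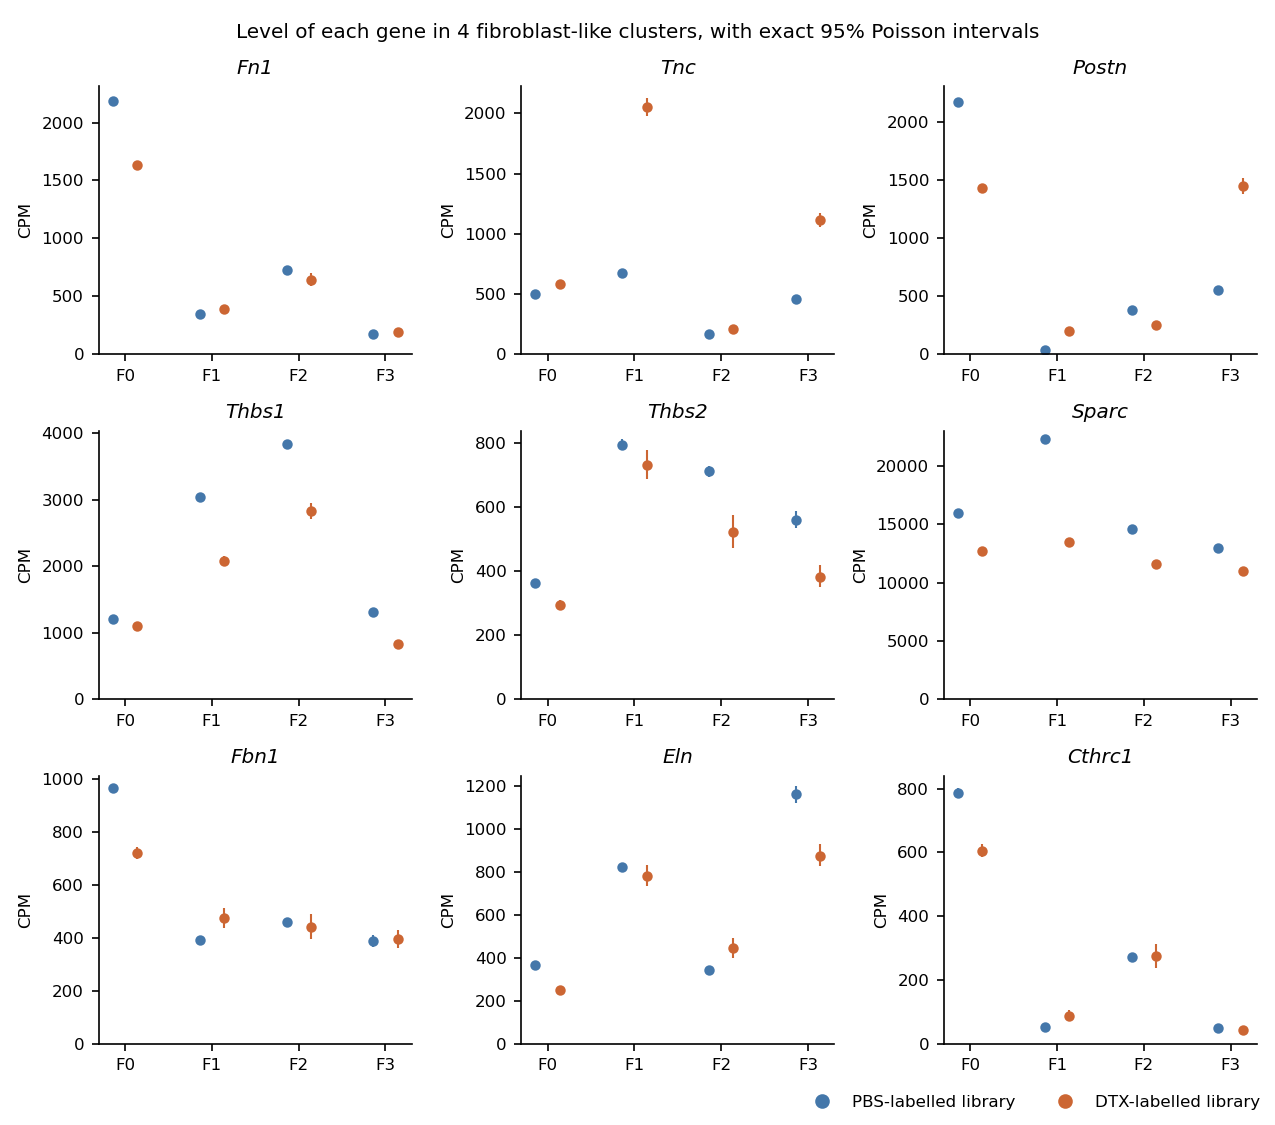
Points give the level of each gene in CPM in fibroblast clusters F0 to F3 for the PBS-labelled and DTX-labelled library, with exact 95% Poisson intervals. Tnc was at 676 and 2051 CPM in F1, and Sparc was lower in DTX-labelled cells of all 4 clusters.

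*Sparc* was lower in DTX-labelled cells of each of the 4 clusters, from 22374 and 13458 CPM in F1 (-0.73) to 12951 and 11021 CPM in F3 (-0.23). *Thbs1* followed the same direction, with log2 ratios of -0.13, -0.55, -0.44 and -0.66 from F0 to F3. *Eln* did not, at -0.56 in F0 and 0.38 in F2.

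Since the cluster shares differed between libraries, DTX-labelled cluster levels were also weighted by the PBS-labelled shares. For this the shares were of UMIs, not of cells, and F6, which held no DTX-labelled cells, was left out. The log2 ratio of *Tnc* was then 1.07, that of *Fn1* -0.31 and that of *Postn* -0.29. The shares alone, with PBS-labelled levels, gave 0.04 for *Tnc*, 0.36 for *Fn1* and 0.50 for *Postn*. The *Fn1* level of the whole class thus combined a lower level in F0 (2187 and 1631 CPM) with a larger share of F0 cells. *Fn1* in the other large clusters was at 348 and 386 CPM (F1), 724 and 641 CPM (F2) and 176 and 195 CPM (F3).

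Macrophage-like cells (1701 PBS-labelled and 4434 DTX-labelled) carried *Fn1* and *Thbs1*. *Fn1* was at 249.6 CPM (239 to 261) and 548 CPM (539.9 to 557), with 1.13 (1.07 to 1.20) as the log2 ratio. *Thbs1* was at 2968 CPM (2931 to 3005) and 5474 CPM (5448 to 5500.2), 0.88 (0.86 to 0.90). After thinning, 18.3% and 39.7% of these cells had an *Fn1* UMI and 88.6% and 95.6% a *Thbs1* UMI. In NK- or T-like cells, which served as the background, the thinned shares were 1.83% and 3.31% and 12.8% and 13.9%. Median depth before thinning was 4714 and 6730 UMIs in macrophage-like and 6534 and 8059 in NK- or T-like cells.

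Of the 9 members 1, *Fn1*, was at least 2-fold higher in DTX-labelled macrophage-like cells, where 1.63% of 10169 genes were, and 5 were at least 2-fold lower, where 3.26% were. The lower members were *Sparc* (164 and 38.6 CPM), *Postn* (18.5 and 6.89 CPM), *Thbs2* (8.40 and 1.37 CPM), *Fbn1* (4.80 and 1.37 CPM) and *Eln* (4.32 and 1.34 CPM). A list of 10 fibroblast genes summed to 758 and 154 CPM in the same cells and to 565 and 119.9 CPM in NK- or T-like cells. Per UMI of that list, *Sparc* was at 0.997 and 1.22 times its ratio in fibroblast-like cells, *Fbn1* at 0.801 and 0.886 times and *Eln* at 0.797 and 1.21 times. *Postn* (154 and 211 UMIs) and *Thbs2* (70 and 42 UMIs) were above their ratios in the whole fibroblast-like class in both libraries. Clusters of that class differed in these ratios. PBS-labelled *Postn* UMIs equalled 3.33% of list UMIs in F0 and 0.0395% in F1. DTX-labelled *Thbs2* UMIs equalled 0.502% of them in F0 and 1.02% in F1. The list itself had 6315 and 4709 UMIs in macrophage-like cells. The part of fibroblast RNA in these low counts was not tested. With the level of NK- or T-like cells subtracted, *Postn* (log2 0.36), *Eln* (0.67) and *Cthrc1* (0.39) were no longer lower. *Sparc* (-3.28), *Thbs2* (-2.06), *Fbn1* (-1.74) and *Tnc* (-1.02) stayed lower under that setting. The NK- or T-like counts behind it were 7 UMIs or fewer for *Tnc*, *Thbs2*, *Fbn1*, *Eln* and *Cthrc1*, and 178 and 48 for *Sparc*. A level at or below that of NK- or T-like cells was taken as none before 1 CPM was added. *Fbn1* in the DTX-labelled library was such a level. These subtracted values compare small remainders, and whether a decrease is left was not tested. Per UMI of the fibroblast list, *Fn1* was at 23.2 and 185 times and *Thbs1* at 128 and 1394 times the ratio in fibroblast-like cells.

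**Figure D4:**
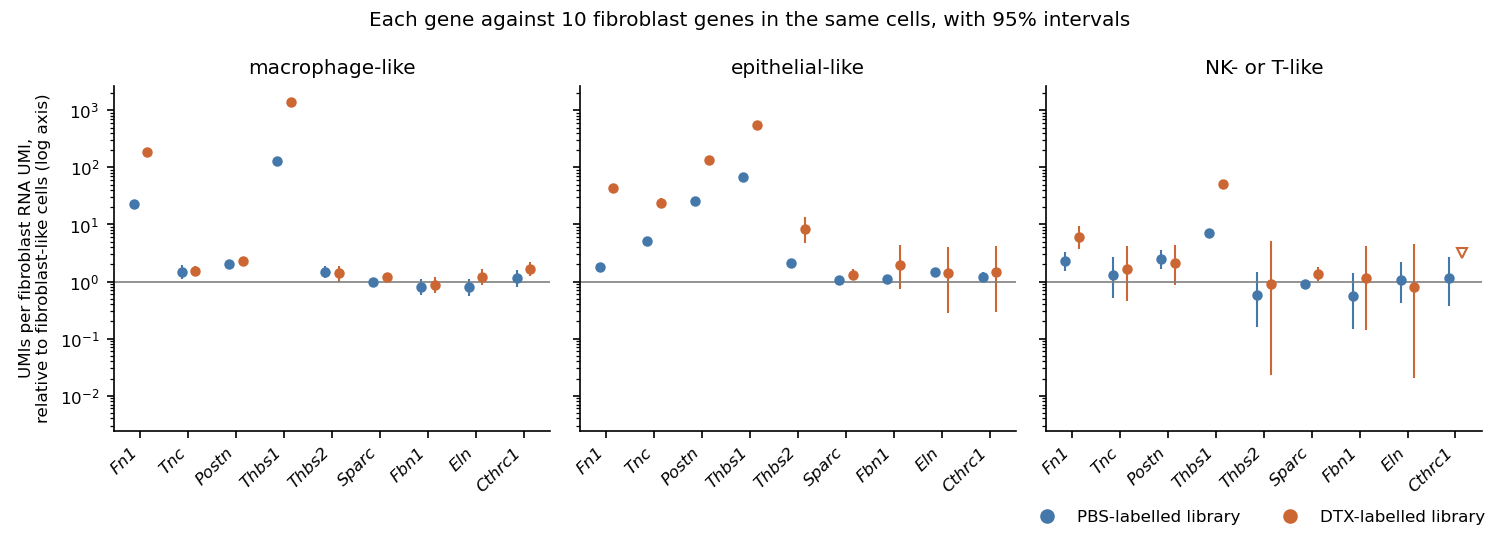
Points give the UMIs of each gene per UMI of 10 fibroblast genes, relative to fibroblast-like cells of the same library, on a log axis with 95% intervals. Open triangles mark an upper bound where no UMI was found. In macrophage-like cells Sparc was at 0.997 and 1.22 and Fn1 at 23.2 and 185.

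Among macrophage-like clusters, *Fn1* and *Thbs1* were highest in M2, led by *Arg1*, *Cxcl3* and *Ccl24*. It held 7 PBS-labelled and 1081 DTX-labelled cells, with *Fn1* at 1621 and 1325 CPM and *Thbs1* at 6548 and 7723 CPM. *Fn1* itself was among the genes that led M2, although it was not used for clustering. In M1, led by *Hp*, *Slpi* and *Vcan* (41 PBS-labelled and 1186 DTX-labelled), *Fn1* was at 393 and 467 CPM and *Thbs1* at 4179.5 and 6416 CPM. In M0, led by class II genes and *C1qa* (787 PBS-labelled and 448 DTX-labelled), *Fn1* was at 182 and 230.3 CPM and *Thbs1* at 3262 and 3178 CPM. In M3, led by *Ccl8*, *Hspa1a* and *Lpl* (576 PBS-labelled and 352 DTX-labelled), *Fn1* was at 360.1 and 201 CPM. M1 and M2 came almost wholly from the DTX-labelled library, so a cell state and a library cannot be told apart there.

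**Figure D5:**
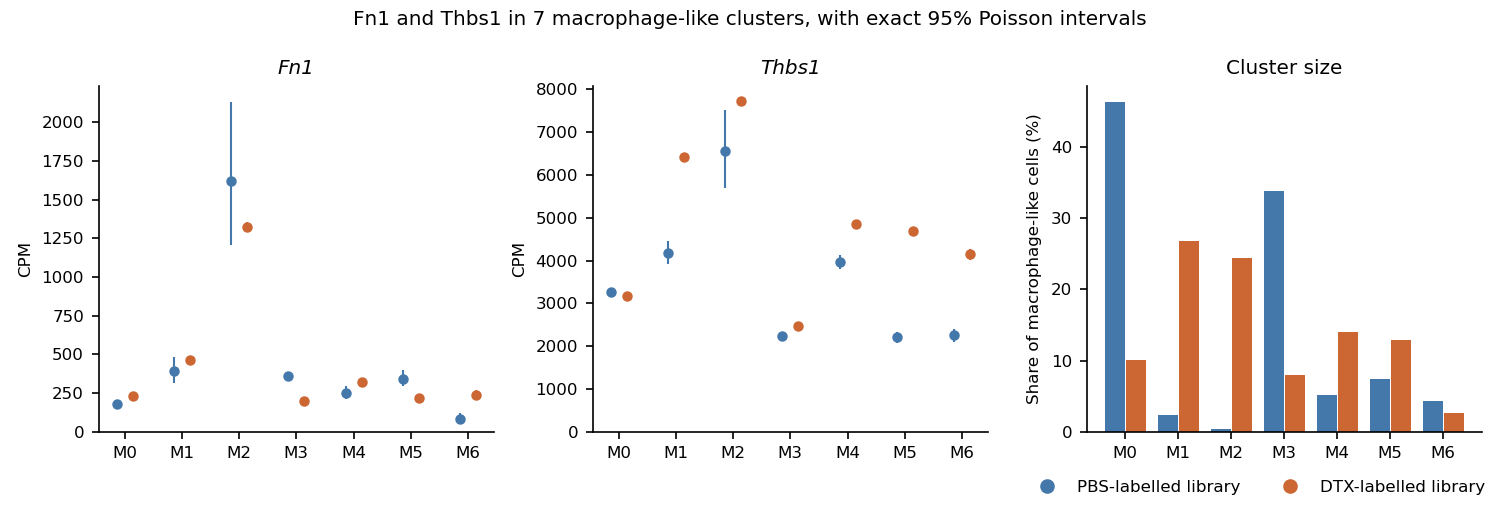
Points give Fn1 and Thbs1 in CPM in macrophage-like clusters M0 to M6 with exact 95% Poisson intervals, and bars give each cluster's percentage of macrophage-like cells in the PBS-labelled and DTX-labelled library. M2 had the highest levels and held 0.412% and 24.4% of the cells.

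With DTX-labelled levels weighted by PBS-labelled cluster shares of UMIs, the log2 ratio of *Fn1* was -0.06 and that of *Thbs1* 0.17. The shares alone gave 1.27 for *Fn1* and 0.49 for *Thbs1*. These 2 values use PBS-labelled levels of M2, from 7 cells with 51 *Fn1* UMIs, and of M1, from 41 cells. They therefore depend on few cells. A cluster of 52 DTX-labelled cells with no PBS-labelled cells was left out of both weightings. Platelets are also rich in thrombospondin 1, so 9 platelet genes were followed in macrophage-like cells. They summed to 1018 and 1211 CPM, of which *Pf4*, which macrophages also make, was 1012 and 1156 CPM. *Gp9* and *Tubb1* were at 0 in both libraries, *Itga2b* had 2 and 13 UMIs and *Ppbp* was at 5.16 and 53.3 CPM. M2, where *Ppbp* was among the leading genes, held it at 0 and 150 CPM. Of the 1632 *Ppbp* UMIs of DTX-labelled macrophage-like cells, 998 lay in M2. In M2 the list summed to 4291 and 2594 CPM and the fibroblast list to 636 and 168 CPM. The part of platelet RNA in these levels was not tested.

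*Thbs1* was also found in other immune cells. Neutrophil-like cells held it at 2826 and 4099 CPM (log2 0.54) and dendritic-like cells at 978 and 732 CPM (-0.42). In neutrophil-like cells the fibroblast list was at 2179 and 348 CPM and the platelet list at 414 and 646 CPM. The median depth of these cells was 1229 and 1920 UMIs. The part of fibroblast or platelet RNA in their *Thbs1* level was not tested. *Fn1* in dendritic-like cells was at 74.4 CPM in both libraries. NK- or T-like cells held *Thbs1* at 124 and 155 CPM and *Fn1* at 18.4 and 14.1 CPM.

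Pericyte-like cells (61 PBS-labelled and 112 DTX-labelled), which wrap small vessels, held much of the stromal set. *Postn* was at 859.9 and 918 CPM, *Sparc* at 8951 and 8008 CPM and *Fn1* at 267 and 321 CPM. *Tnc* was higher in DTX-labelled cells, at 422 CPM (380.1 to 466) and 679.7 CPM (641 to 720.3) (log2 0.69). *Cthrc1* was the 1 member at least 2-fold lower, where 2.11% of 5637 genes were, and rested on 64 and 19 UMIs. None was at least 2-fold higher, where 2.22% of genes were. These cells gave 1.94% and 11.4% of all *Postn* UMIs. The list of 10 fibroblast genes was at 18066 and 12581 CPM in them, and its part in these values was not tested. Endothelial-like cells held *Sparc* at 5142 and 3586 CPM and the fibroblast list at 2635 and 145 CPM. None of the 6 members compared there reached a 2-fold difference, where 2.62% of genes were at least 2-fold lower and 1.84% higher.

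Epithelial-like cells (2066 PBS-labelled and 235 DTX-labelled), which close the wound surface, held *Thbs1* at 1247 and 1104 CPM and *Postn* at 185 and 197 CPM. The class value of *Thbs1* hid a split. In the cluster led by *Krt1*, *Krt10* and *Krt14* it was at 1510.1 and 1955 CPM, and in the cluster led by *Krt79* and *Krt17* at 709 and 569 CPM. Per UMI of the fibroblast list, *Postn* was at 25.6 and 133 times its ratio in fibroblast-like cells.

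Of the 9 members 1, *Fn1*, was at least 2-fold higher in DTX-labelled epithelial-like cells (15.3 and 64.6 CPM), where 2.67% of 10288 genes were. The tenth of cells richest in *Fn1* held 91.7% and 96.0% of its UMIs. The 5 members at least 2-fold lower, where 2.07% of genes were, were *Sparc* (141 and 21.1 CPM), *Thbs2*, *Fbn1*, *Eln* and *Cthrc1*. The fibroblast list was at 597 and 77.3 CPM in these cells, and its part in the result was not tested.

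Other matrix genes of fibroblast-like cells were followed in 6 lists. Over all genes compared in this class, 2.64% were at least 2-fold higher and 1.4% at least 2-fold lower. The values are of the whole class, whose cluster shares differed between libraries. Over all genes compared in F0, F1, F2 and F3, in that order, 0.79%, 2.15%, 1.77% and 0.841% were at least 2-fold higher. At least 2-fold lower there were 0.965%, 3.59%, 4.57% and 1.93%. Of 19 other matricellular genes 4 were at least 2-fold higher and none was 2-fold lower, and the list's median was 0.08 (log2). They were *Vtn* at 3.20 and 29.4 CPM (log2 2.86), *Comp* at 0.856 and 8.85 CPM (log2 2.41), *Spp1* at 62.1 and 322 CPM (log2 2.36) and *Thbs4* at 70.8 and 171 CPM (log2 1.26). *Vtn* encodes the adhesive protein vitronectin, *Comp* and *Thbs4* are relatives of the thrombospondins, and *Spp1* encodes osteopontin. *Spp1* was also among the leading genes of macrophage-like cluster M2, and the part of myeloid RNA in these values was not tested. Within clusters, 3 of 19 genes of this list were at least 2-fold higher in F0, 1 of 15 in F1 and none in F2 or F3. In F1 and in F2, 1 was at least 2-fold lower. Of 19 genes of TGF-beta signalling and contraction 1 was at least 2-fold higher, *Tgfb1* at 43.7 and 96.3 CPM (log2 1.12), and the median was 0.46. Within clusters, 4 of 16 genes of this list were at least 2-fold higher in F1, 1 of 16 in F2 and none in F0 or F3. In F3, 1 was at least 2-fold lower.

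Of 19 matrix proteases and inhibitors 2 were at least 2-fold lower, the macrophage elastase gene *Mmp12* at 7.39 and 2.78 CPM (log2 -1.15) and *Ctsk*, the gene of the collagen-cleaving cathepsin K, at 3786 and 1879 CPM (log2 -1.01). The median was -0.26. Within clusters, 1 gene of this list was at least 2-fold lower in each of F0, F1 and F2, and none in F3. In F0, 1 was at least 2-fold higher. Of all genes, 0.965%, 3.59%, 4.57% and 1.93% were that much lower in F0, F1, F2 and F3, and 0.79% that much higher in F0. None of 19 elastic fibre genes (median -0.30), 20 genes of collagen assembly (0.03) or 17 matrix receptors (0.17) reached a 2-fold difference. *Ltbp1*, which anchors latent TGF-beta in microfibrils, was at 188 and 118 CPM (log2 -0.67), and *Lum*, which encodes a proteoglycan of collagen fibrils, at 4223 and 2584 CPM (log2 -0.71).

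The genes whose levels were most like each member were sought over 18 sums, 9 classes in both libraries, by Pearson r of log2 levels. *Fn1* was most like *Mmp14* (0.93) and *Vcan* (0.91), and *Thbs1* most like *Mdm2* (0.95) and *Lamp2* (0.93). *Tnc* was most like *Rbms3* (0.98) and *Postn* most like *Ddr2* (0.96). *Thbs2* was most like *Mfap2* (0.98), *Fbn1* most like *Col5a2* (0.98), *Sparc* most like *Fstl1* (0.99) and *Eln* most like *Aebp1* (0.99). *Cthrc1* was most like *Serpina3n* (0.97). Between members r was 0.98 for *Sparc* and *Eln* and 0.23 for *Sparc* and *Thbs1*. The sums share library and depth, and the values are a description.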

How the data were processed

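The authors sorted live wound cells and captured them with the 10x Genomics 3′ kit. The deposited tables hold unscaled UMI counts for each gene in each barcode. The submitters' processing notes name Cell Ranger 6.1.1 and mm10. Barcodes passed with 500 or more genes detected and no more than 6% of UMIs from mitochondrial genes, 8326 of 12058 PBS-labelled and 7188 of 11031 DTX-labelled. Scrublet in scanpy 1.11.5 removed 382 PBS-labelled doublets. It called none in the DTX-labelled library, where the 575 cells with the top 8% of scores were removed. Median depth of kept cells was 9579.5 and 7286 UMIs. Cells were clustered without the 9 members in R 4.3.3 with Seurat 5.3.0, with 2000 variable genes, 30 components and resolution 0.2 for all and fibroblast-like cells, 0.4 for finer and 0.5 for macrophage-like clusters. Classes were named "-like" from fixed marker lists, and 1 cluster stayed unnamed.

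Levels are summed UMIs in CPM with exact 95% Poisson intervals. Log2 ratios have 1 CPM added and binomial intervals of the UMI split, and are given for genes with at least 50 UMIs in the class. A difference of at least 2-fold was counted without a test. The interval code was tested on simulated data. Named genes are the members, at most 4 genes per list with the largest log2 ratios, genes that lead clusters, genes of the lists for other cells and the 3 genes most like each member. The members and lists were chosen with earlier results of these data known. Alternatives changed the value added, the doublet, gene and mitochondrial filters, the scaling, the weight of cells, the clustering, the thinning and the background.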

Additional observations from a re-analysis of the deposited data

Results flagged for a closer look

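Some members differed in opposite directions in fibroblast-like and macrophage-like cells, each with its counting interval on its own side of 0. With 1 library per group the difference between the classes was not tested. The log2 ratio of DTX-labelled over PBS-labelled *Thbs1* was -0.69 in fibroblast-like and 0.88 in macrophage-like cells. *Tnc* was at 0.86 and -0.77, *Postn* at 0.24 and -1.30, and *Cthrc1* at 0.10 and -0.90. In macrophage-like cells these 3 genes were at 6.48 and 3.397 CPM, 18.5 and 6.89 CPM and 4.202 and 1.80 CPM. The list of 10 fibroblast genes was at 758 and 154 CPM in the same cells, and its part in these values was not tested. With the level of NK- or T-like cells subtracted, the macrophage-like value was -1.02 for *Tnc*, 0.36 for *Postn* and 0.39 for *Cthrc1*. Of these 4 genes only *Tnc* and *Thbs1* (0.90) then stayed on opposite sides. The *Tnc* value compares small remainders, from 54 and 104 UMIs before subtraction.

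The same held between fibroblast clusters, again untested. *Postn* was at 2.35 in F1 and -0.62 in F2, and *Eln* at 0.38 in F2 and -0.56 in F0. In F1 and F0, *Cthrc1* was at 0.77 and -0.38, *Fbn1* at 0.28 and -0.42, and *Fn1* at 0.15 and -0.42.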

How the results depend on the processing

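No paired analysis was possible because each group is 1 library, and for the same reason no replicate could be left out. In fibroblast-like cells no member reached 2-fold under the alternatives run, except with at most 2000 genes per cell, a limit the study's methods state. Then 2 were lower, *Sparc* (-1.06) and *Thbs2* (-1.07), and 1 was higher, *Tnc* (1.19, log2). In macrophage-like cells 1 member was higher under each alternative run and 4 to 6 were lower. With the level of NK- or T-like cells subtracted, the log2 ratios of *Postn* and *Eln* in macrophage-like cells turned to 0.36 and 0.67, from -1.30 and -1.19, and *Cthrc1*, below 2-fold, went from -0.90 to 0.39. *Sparc* (-3.28), *Thbs2* (-2.06), *Fbn1* (-1.74) and *Tnc* (-1.02) stayed lower under that setting. *Postn* in F1 turned to -4.97 with at most 2000 genes per cell, where 6 DTX-labelled cells with 0 *Postn* UMIs were left. *Tnc* ranged from 1.45 to 2.19 in F1 and from 1.03 to 2.15 in F3, and *Postn* from 1.06 to 1.84 in F3. The highest value of each came with at most 2000 genes per cell, where 6 DTX-labelled cells of F1 and 11 of F3 were left. Where cells were clustered anew, the cluster that best overlapped F1 or F3 was used. That for F3 held 796 cells with a mitochondrial limit of 10% and 394 cells without doublet removal, against 501 cells in F3. The alternatives for F1, F3 and M2, and the removal of F4 and F6, were chosen after seeing the data. Resolution 0.5 was not run for F1 and F3. Cells at the borders of macrophage-like clusters changed cluster with the numerical library settings of the computer, so these clusters are less firm than the classes.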
